A study of Mus musculus with 4 samples.

Results

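The cyclin-dependent kinase inhibitors are 7 genes, taken by symbol from a hippocampal expression table of 23466 gene symbols. They are Cdkn1a, Cdkn1b and Cdkn1c of the Cip/Kip family and Cdkn2a, Cdkn2b, Cdkn2c and Cdkn2d of the INK4 family. All 7 were in the table, in 11 transcript records. A gene with several records was represented by the one with the highest mean over the 4 libraries, which does not use the groups. The genes were thus chosen by symbol and their records selected on that mean. The family itself was picked with the difference in Cdkn1a already known, so the values below describe these libraries and the p-values of Cdkn1a are no independent evidence.

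RNA came from frozen hippocampus of C57BL/6N mice at postnatal day 30. Mutants 38 and 39 are labelled ko in their titles and conditional het, Atp6ap2Camk2aCre/0, in their condition field. Wild-types 11 and 73 are the other group. Camk2a-Cre is a recombinase made in excitatory neurons of the forebrain, so glia, vessels, blood and choroid plexus in the same tissue are not its target, and the tissue value sums them all. Atp6ap2, an accessory subunit of the vacuolar proton pump, had 2312 and 2637 scaled read equivalents in the wild-types against 2551 and 2522 in the mutants. The groups overlapped, so this value does not check the labels, and mutant and wild-type mean the libraries so labelled. Which part of the gene is deleted is not given in the sources used here. Here and below the values stand in the order wild-type 11, wild-type 73, mutant 38 and mutant 39. A scaled read equivalent is the deposited signal in aligned bases divided by the 42 bases of 1 read. Library depth was between 10023033 read equivalents over genes in wild-type 73 and 18339838 in wild-type 11. The excitatory neuron markers were abundant in every library (6 of 6 detected, summed level 61953 to 71933), as were those of hippocampal regions (8 of 8). Wild-type 11 and mutant 38 stood apart from the other pair: all 17 choroid plexus markers were higher in both of them. In bulk tissue, more cells of a type and more RNA per cell cannot be told apart.

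Cyclin-dependent kinases drive the cell cycle once a cyclin is bound. INK4 proteins bind the kinases Cdk4 and Cdk6 and keep D-type cyclins off them, whereas Cip/Kip proteins bind whole cyclin-kinase complexes, above all those with Cdk2. Neurons have left the cell cycle, and in brain these genes are known from precursor cell division, cell cycle exit and responses to stress. Cdkn1a encodes p21, a classical target of the transcription factor p53 that is also induced without p53. Cdkn1b encodes p27 and Cdkn1c encodes p57, the product of an imprinted gene. Cdkn2a encodes both p16INK4a and, in another reading frame, the p53 activator p19ARF. Cdkn2b, Cdkn2c and Cdkn2d encode p15, p18 and p19INK4d.

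The start regions of 3 members are shown because Cdkn1a was the member that differed most between the groups and has 2 starts, while Cdkn1b and Cdkn2d were the members with the highest level per length. Each window is 300 bases of RefSeq sequence in build GRCm38.p6, 250 before a transcript start and 50 from it on, printed 5′ to 3′ on the gene's strand. The files were made on mm9, so these coordinates belong to the reference alone. Capitals mark the p53 core, which is CATG, any 6 bases and CATG, and the GC box GGGCGG, on either strand. The windows are at chr17:29090729-29091028 (Cdkn1a upstream start, plus strand), chr17:29093519-29093818 (Cdkn1a downstream start, plus strand), chr6:134920151-134920450 (Cdkn1b, plus strand) and chr9:21291160-21291459 (Cdkn2d, minus strand).
Cdkn1a upstream start: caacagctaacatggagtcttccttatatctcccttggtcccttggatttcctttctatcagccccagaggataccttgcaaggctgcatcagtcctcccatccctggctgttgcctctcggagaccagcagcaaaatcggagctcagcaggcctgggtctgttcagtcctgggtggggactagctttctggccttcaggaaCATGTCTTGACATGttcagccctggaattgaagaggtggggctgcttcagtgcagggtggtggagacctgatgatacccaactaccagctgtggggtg
Cdkn1a downstream start: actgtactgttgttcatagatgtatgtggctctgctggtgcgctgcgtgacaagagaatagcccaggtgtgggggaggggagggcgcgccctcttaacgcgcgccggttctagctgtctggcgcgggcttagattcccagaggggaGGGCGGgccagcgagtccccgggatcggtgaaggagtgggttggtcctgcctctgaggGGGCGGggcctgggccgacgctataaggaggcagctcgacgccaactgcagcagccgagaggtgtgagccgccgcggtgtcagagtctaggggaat
Cdkn1b: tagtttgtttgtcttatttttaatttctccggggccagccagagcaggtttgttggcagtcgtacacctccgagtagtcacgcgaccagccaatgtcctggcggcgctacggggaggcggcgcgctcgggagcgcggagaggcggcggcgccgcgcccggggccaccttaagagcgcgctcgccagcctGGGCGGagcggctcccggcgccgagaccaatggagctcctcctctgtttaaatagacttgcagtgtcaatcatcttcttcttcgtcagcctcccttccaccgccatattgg
Cdkn2d: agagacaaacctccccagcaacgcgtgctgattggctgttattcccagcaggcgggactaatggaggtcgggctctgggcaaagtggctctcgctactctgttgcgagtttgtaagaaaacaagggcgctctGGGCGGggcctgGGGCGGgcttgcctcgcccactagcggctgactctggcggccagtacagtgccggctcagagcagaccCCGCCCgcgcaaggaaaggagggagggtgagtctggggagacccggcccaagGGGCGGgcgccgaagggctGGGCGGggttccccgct

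Of the 7 members, 6 had windows, 9 in all. That core is part of the p53 consensus. It was found in 1 of the 9 windows, the upstream start of Cdkn1a, where it begins 48 bases before the start, and in 0.712% of 32851 windows of the same length. The GC box, bound by Sp factors, was found in 7 of the 9 windows and in 35.7% of all windows. The upstream window of Cdkn1a has none, and the downstream window has 2. None of the 9 windows held the TATA box TATAAA, which 13.6% of all windows hold. The CCAAT box was in 4 of the 9 windows and 37.4% of all, and the cyclic AMP element, TGAC directly before GTCA, in 1 of the 9, that of Cdkn2b, and 1.79% of all. The serum response core, CC, ATATTA and GG without gaps, was in 0 of the 9 and 0.064% of all windows. All 6 motifs were searched on both strands, and they were chosen with the difference in Cdkn1a and its known regulation in mind. These matches describe letters and are not evidence of binding.

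Cdkn1a, the inhibitor gene that p53 and many stress signals induce, lay above both wild-types in each mutant. It had 63.6 and 56.9 scaled read equivalents in the wild-types against 237 and 137 in the mutants. The lower mutant was 2.15-fold above the higher wild-type, and mutant 38 was 1.73-fold above mutant 39. Before scaling these were 76, 36, 281 and 151 reads. The exact 95% Poisson intervals, which cover counting error only, were 50 to 79.5 and 39.4 to 77.8 scaled read equivalents in the wild-types, 210 to 267 in mutant 38 and 115 to 160 in mutant 39. The wild-types thus overlapped each other within counting error, and the mutants overlapped neither the wild-types nor each other.

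The means of Cdkn1a were 60.3 ± 4.78 for the wild-types and 187 ± 70.9 for the mutants (SD, n = 2 each). In the fit across all genes its log2 fold change was 1.56 ± 0.29 (SE; 95% interval 0.87 to 2.26), a fold of 2.96 with an interval of 1.83 to 4.77. Its unadjusted limma p was 0.00107 and ranked 39 among 18127 genes, and its adjusted p over all genes was 0.490, so that it did not pass the threshold of 0.05. In the authors' deposited table the p of its 2 records was 3.38e-05 and 3.09e-05. With the level of choroid plexus markers as a covariate, which leaves 1 residual degree of freedom, the log2 fold change was 1.54 and the adjusted limma p 0.000906. The log2 fold change was 1.17 without mutant 38 (adjusted p = 0.998, limma) and 1.96 without mutant 39 (adjusted p = 0.0740, limma). Its size thus depended on the mutant kept, while its direction is fixed by the groups not overlapping.

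The 2 records of Cdkn1a begin at the 2 starts printed above, which lie 2790 bases apart: NM_001111099 at the upstream one and NM_007669 at the downstream one. The downstream record had 1 read more in wild-type 11 and 0.81 of a read more in mutant 38, and the same reads in the other 2 libraries. Nearly all reads were therefore counted in both records, and the table does not show which start the transcripts came from.

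**Figure D1:**
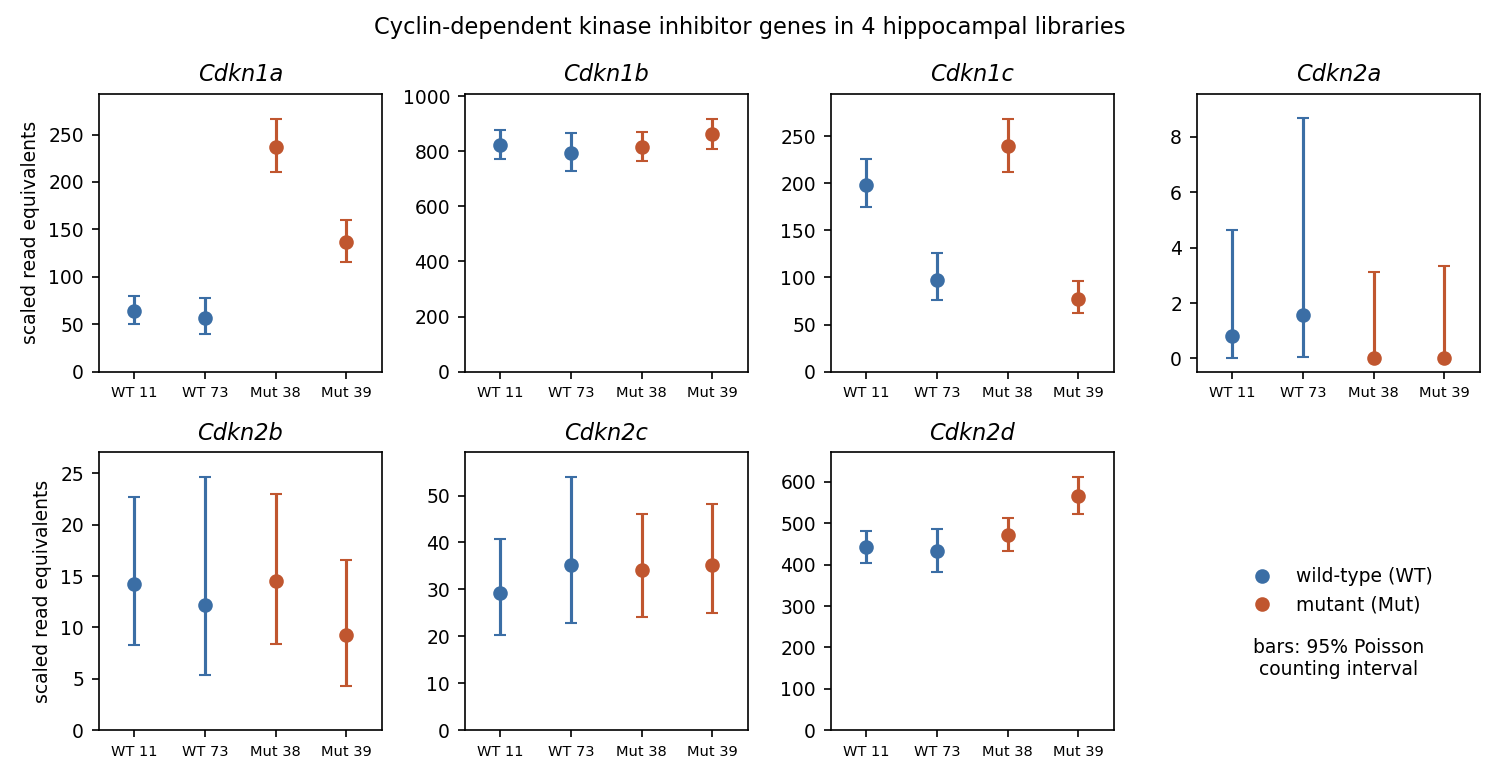
Scaled read equivalents (vertical axes, each starting at 0 or, for Cdkn2a, just below it) of the 7 inhibitor genes in the 4 libraries (horizontal axes), with wild-types in blue and mutants in orange; points are single libraries and bars are exact 95% Poisson counting intervals. Cdkn1a is at 63.6 and 56.9 in the wild-types against 237 and 137 in the mutants, while Cdkn1c is high in wild-type 11 and mutant 38 and low in the other pair.

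Cdkn1b, whose product p27 holds differentiated cells out of the cycle, was level in all libraries. It had 824 and 795 scaled read equivalents in the wild-types against 815 and 862 in the mutants. The groups overlapped, and the means were 809 ± 20.3 and 838 ± 32.9 (SD, n = 2 each). On the log2 scale it differed by 0.05 ± 0.10 (SE with n = 2 per group; adjusted p = 0.989, limma), and the 95% interval of the fold was 0.873 to 1.23. A change of Cdkn1b as large as the fold of Cdkn1a lies outside that interval.

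Cdkn1c, the imprinted gene of p57, divided the libraries within each group. It had 199 and 97.8 scaled read equivalents in the wild-types against 239 and 77.3 in the mutants. The mutants enclosed the wild-types: the highest and the lowest library were both mutants. Wild-type 11 was 2.03-fold above wild-type 73 and mutant 38 was 3.09-fold above mutant 39. The summed level of the 17 choroid plexus markers differed in the same direction, from 7568 to 75742 between the wild-types and from 7853 to 126258 between the mutants, and none of the 17 was at 0 in any library. The sum of the meningeal fibroblast markers, 8 of 8 detected, did so too, by 1.49-fold (4214 and 2827) and 2.61-fold (4492 and 1721). Igf2 contributed 1700 and 680 to it in the wild-types and 2272 and 602 in the mutants. Dcn went the other way in the wild-types (801 and 1060) and Slc6a13 in the mutants (189 and 197), while the other markers followed the sum in both groups. The part of these cells in the level of Cdkn1c was not tested.

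The log2 fold change of Cdkn1c between mutant and wild-type was -0.03 ± 0.54 (SE, n = 2 per group; adjusted p = 0.997, limma), with a 95% interval of the fold from 0.402 to 2.38. With the choroid plexus covariate it was -0.10, with an adjusted limma p of 0.962. It was -0.84 without mutant 38 and -0.54 without wild-type 73, against 0.47 without wild-type 11 and 0.78 without mutant 39. The direction of Cdkn1c between the groups thus changed with the library left out.

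Genes of the imprinted domain around Cdkn1c were listed for comparison. Of 9 genes, 8 were tested and 0 passed in either direction. Kcnq1ot1, the antisense transcript whose paternal expression silences genes of the domain, had 6173 and 6164 scaled read equivalents in the wild-types against 5663 and 5234 in the mutants. Both mutants lay below both wild-types, with a log2 fold change of -0.18 ± 0.10. Its host gene Kcnq1, a potassium channel, had 26.5 and 23.3 in the wild-types against 19.5 and 12.3 in the mutants, with -0.65 ± 0.39 (SE, n = 2 per group). Neither gene had the division of Cdkn1c, which spanned 1.62 on the log2 scale between its highest and lowest library. Slc22a18, Ascl2 and Cd81, named after their values were seen, were higher in wild-type 11 and mutant 38 than in the other pair. Slc22a18 had 11.5 and 6.25 in the wild-types against 10.1 and 7.22 in the mutants. Ascl2 had 4.18 and 3.12 against 6.75 and 3.61, both genes at low levels. Cd81 differed little, at 5599 and 5436 against 6027 and 5548. Tssc4, Tspan32 and Nap1l4 did not have that division.

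The 3 INK4 genes that could be tested had log2 fold changes between -0.17 and 0.24. Cdkn2d, the INK4 member of postmitotic neurons, had 442 and 432 scaled read equivalents in the wild-types against 472 and 565 in the mutants. Both mutants were above both wild-types, but mutant 38 exceeded wild-type 11 by only 1.07-fold. The counting interval of mutant 38 (434 to 513) overlapped those of wild-type 11 (405 to 481) and wild-type 73 (383 to 487), and that of mutant 39 (522 to 611) overlapped none of the other 3. On the log2 scale it differed by 0.24 ± 0.13 (SE with n = 2 per group; 95% interval -0.08 to 0.56; adjusted p = 0.989, limma). A further record of Cdkn2d with the same accession was listed at 0 in all 4 libraries.

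Cdkn2c, the gene of p18, had 29.2 and 35.2 scaled read equivalents in the wild-types against 34.0 and 35.2 in the mutants. The groups overlapped, and with 23 to 40 reads per library the counting intervals of all 4 overlapped. On the log2 scale it differed by 0.11 ± 0.30 (SE with n = 2 per group; adjusted p = 0.991, limma), and the interval of the fold ran from 0.655 to 1.77. Cdkn2b, the gene of p15, had 14.2 and 12.2 in the wild-types against 14.5 and 9.22 in the mutants. These were 17, 8, 17 and 10 reads in the same order, and the groups overlapped. On the log2 scale it differed by -0.17 ± 0.43 (SE with n = 2 per group; adjusted p = 0.991, limma), with an interval of the fold from 0.437 to 1.81.

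Cdkn2a was close to undetected. It had 1 read in each wild-type, which is 0.795 in wild-type 11 and 1.56 in wild-type 73 after scaling, and was listed at 0 in both mutants. A count of 0 allows up to 3 reads, or 2.53 and 2.71 scaled read equivalents in mutants 38 and 39, as a one-sided limit; the two-sided exact Poisson intervals plotted reach 3.11 and 3.33. So no fold is given and no difference was detectable. Its 2 records, of p16INK4a and of p19ARF, had the same values, and the 2 reads do not tell these transcripts apart. Cdkn2a did not reach the filter of at least 1 read equivalent in 2 libraries and was not tested.

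Of the 6 members tested, 0 passed at an adjusted limma p below 0.05, against 0.00552% of all 18127 tested genes, which is Apold1 alone. Cdkn1a was the 1 member with an unadjusted p below 0.05, and it was higher, as were 2.18% of tested genes, while 0 members and 1.75% of tested genes were lower at that level. Cdkn1a and Cdkn2d had both mutants above both wild-types, as did 16.8% of tested genes, and 0 members had both below, as did 16.5%. The median log2 fold change was 0.08 over the 6 members and 0.0067 over all tested genes. With 2 libraries per group an exact two-sided permutation test cannot give a p below 0.333.

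**Figure D2:**
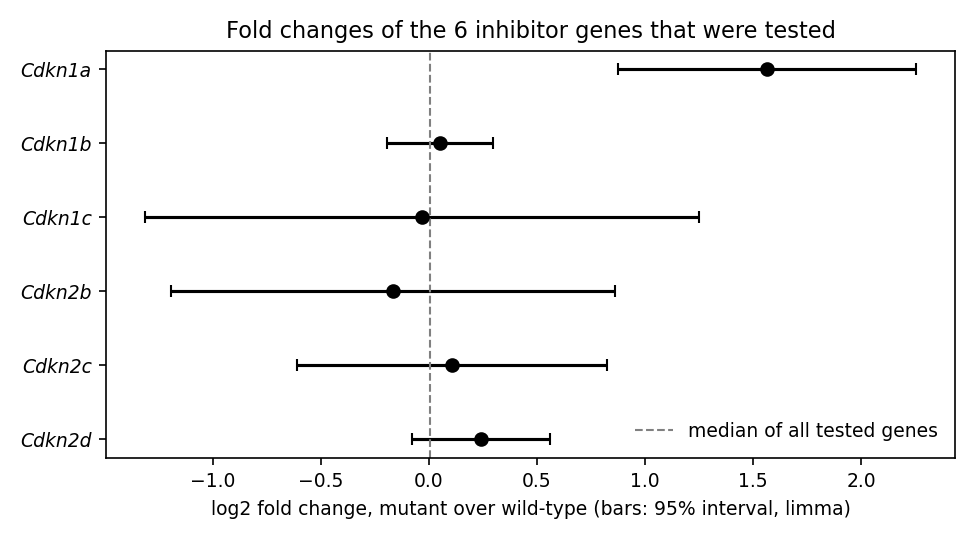
Log2 fold change of mutant over wild-type (horizontal axis) for the 6 inhibitor genes tested (vertical axis); points are limma estimates from 2 libraries per group, bars are 95% intervals and the dashed line is the median of all tested genes. The interval of Cdkn1a runs from 0.87 to 2.26, and those of the other 5 genes include 0.

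Levels of different genes were compared as mean coverage per base, the scaled bases divided by the length of the GENCODE M21 transcript linked to the record. In wild-type, Cdkn1b was highest at 14.2 ± 0.356 and Cdkn2d next at 12.9 ± 0.206. Cdkn1c followed at 3.30 ± 1.58, then Cdkn1a at 1.32 ± 0.105 and Cdkn2c at 1.22 ± 0.162 (SD, n = 2 each). Cdkn2b had 0.398 ± 0.044 and Cdkn2a 0.058 ± 0.0267. On the 1913 bases of the transcript used here for Cdkn1a, Cdkn1a and Cdkn2c overlapped in the wild-types, at 1.25 to 1.40 and 1.11 to 1.34. In the mutants the coverage of Cdkn1a was 4.10 ± 1.56, above Cdkn2c at 1.32 ± 0.031 and overlapping Cdkn1c at 3.52 ± 2.55 (SD, n = 2 each). Cdkn2d at 15.3 ± 1.95 and Cdkn1b at 14.7 ± 0.578 overlapped there too. Cdkn1b and Cdkn2d thus had the highest coverage of the family in both groups. By the means, Cdkn1a came after Cdkn1c in wild-type and before it in mutant. Of the mutants, only mutant 39 had Cdkn1a above Cdkn1c, and in mutant 38 Cdkn1c was slightly the higher. The order also depends on the transcript length. On the 922 bases linked to the other record of Cdkn1a, its wild-type mean was 2.73, within the 2.18 to 4.42 of Cdkn1c. On that length Cdkn1a was above Cdkn1c in each mutant.

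The genes nearest to Cdkn1a in profile were sought among 13028 genes with a mean of at least 50 scaled read equivalents, by the distance between centred log2 profiles over the 4 libraries. Distance is a description, and with 4 libraries it carries no test. The nearest was 1810011O10Rik, at a distance of 0.241, with 34.4 and 37.5 scaled read equivalents in the wild-types against 131 and 73.6 in the mutants. Akap12, a scaffold of protein kinase A, was next at 0.275, with 687 and 676 in the wild-types against 2170 and 1560 in the mutants. Like Cdkn1a, both genes were higher in mutant 38 than in mutant 39, which follows from their closeness to its profile.

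Edn1, the vasoconstrictor endothelin, followed at 0.358, with 51.0 and 62.6 in the wild-types against 196 and 130 in the mutants. Zfp36, which destabilises messenger RNA, was at 0.426 with 92.6 and 81.2 in the wild-types against 248 and 209 in the mutants. Tnfrsf12a, the receptor of the cytokine TWEAK, was at 0.498 with 41.9 and 32.5 in the wild-types against 105 and 93.8 in the mutants. These 5 were the genes within a distance of 0.5. In all 5 both mutants were above both wild-types, which follows from choosing them by closeness to the profile of Cdkn1a.

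The profile of Cdkn1c was nearest to Ltc4s, a leukotriene synthase (0.0983), Fam161a, a ciliary protein (0.106), and Acss3, a mitochondrial acyl-CoA synthetase (0.122). Ltc4s had 86.0 and 42.2 scaled read equivalents in the wild-types against 95.4 and 32.2 in the mutants. It has the division of Cdkn1c because it was chosen by that profile. Wild-type 11 and mutant 38 both exceeded the other pair by at least 2-fold in 1.73% of tested genes, a level set after the values of Cdkn1c were seen. For the level genes the nearest profile says little, since 11341 genes lay within 0.5 of Cdkn1b, with 2610002M06Rik, Atg7 and Exosc9 nearest. For Cdkn2c these were Eid2, Snrk and Reep2, and for Cdkn2d they were Snrpa1, Epha4 and Sap18.

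**Figure D3:**
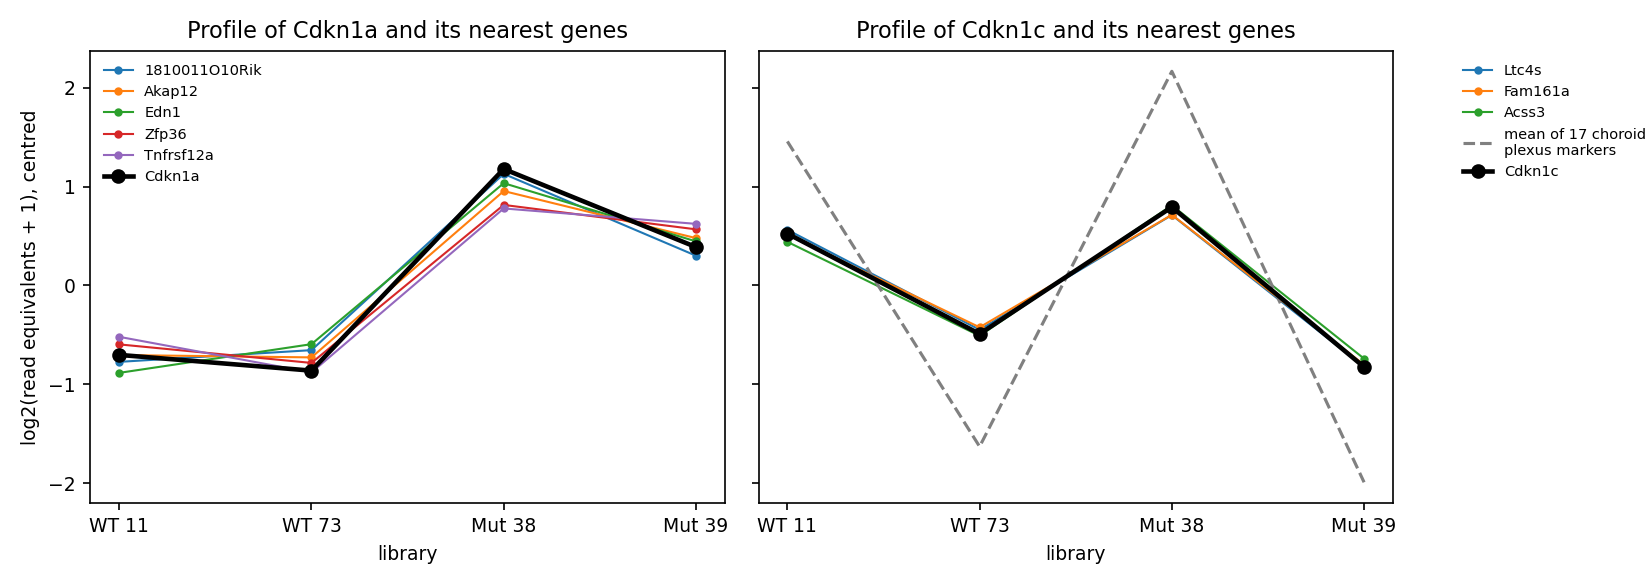
Centred log2(read equivalents + 1) (vertical axis) in the 4 libraries (horizontal axis) for Cdkn1a with its 5 nearest genes (left) and Cdkn1c with its 3 nearest genes and the mean of 17 choroid plexus markers (right); each line joins the single values of 1 gene, or of the marker mean, only to guide the eye. In the left profiles the mutants are above the wild-types, and the right ones are high in wild-type 11 and mutant 38. The nearest genes have these shapes because they were chosen by profile.

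The p53 pathway was listed because Cdkn1a is its classical target and carries the p53 core above. Trp53 itself had 291 and 284 scaled read equivalents in the wild-types against 252 and 235 in the mutants, with a log2 fold change of -0.24 ± 0.14. Mdm4, an inhibitor of p53, had 0.18 ± 0.11 (SE, n = 2 per group). Mdm2, a direct p53 target that degrades p53, had 788 and 866 in the wild-types against 862 and 690 in the mutants, so that its groups overlapped; it was chosen after its values were seen. Of the 8 genes of p53 and its regulators, 0 passed in either direction, and their median log2 fold change was -0.03.

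Of 20 other p53 target genes 19 were in the table and tested, and 0 passed in either direction. Of these 19, 4 had an unadjusted p below 0.05, all higher, against 2.18% of all tested genes, and 8 had both mutants above and 1 both below the wild-types, against 16.8% and 16.5% of all tested genes. Their median log2 fold change was 0.10, against 0.0067 over all tested genes. Btg2, an antiproliferative gene, had 533 and 465 scaled read equivalents in the wild-types against 880 and 745 in the mutants. Trp53inp1, which promotes p53 activity, had 558 and 624 in the wild-types against 792 and 692 in the mutants. Their log2 fold changes were 0.70 ± 0.14 and 0.33 ± 0.13 (SE, n = 2 per group), beside the 1.56 of Cdkn1a. The other two with an unadjusted p below 0.05, named after their values were seen, were the stress gene Sesn1 (0.27 ± 0.11) and the death receptor gene Tnfrsf10b (0.97 ± 0.38; SE, n = 2 per group). None of the 14 list genes with a RefSeq window held the p53 core, against 0.833% of 27025 symbols, which says only that those letters are not in these windows.

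Other transcription regulators of the inhibitor genes gave 0 passes in either direction among 21 genes, with a median log2 fold change of -0.02. Unadjusted p-values were below 0.05 for 3, all higher, against 2.18% of all tested genes that were higher and 1.75% that were lower. Klf4, a factor that activates Cdkn1a transcription, had 135 and 93.2 scaled read equivalents in the wild-types against 261 and 196 in the mutants. Id1, an inhibitor of basic helix-loop-helix factors, had 209 and 201 in the wild-types against 424 and 348 in the mutants. Their log2 fold changes were 1.01 ± 0.25 and 0.90 ± 0.16 (SE, n = 2 per group; adjusted p = 0.940 and 0.394, limma). In both genes the 2 mutants lay above the 2 wild-types and mutant 38 above mutant 39, as in Cdkn1a. The third was Klf6, named after its values were seen, at 677 and 670 in the wild-types against 930 and 861 in the mutants.

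The kinases and cyclins that the inhibitors act on came next. Among 8 G1 cyclins and kinases 0 passed in either direction, and the median log2 fold change was -0.08. Ccne1, the cyclin E that activates Cdk2, had 148 and 177 scaled read equivalents in the wild-types against 116 and 138 in the mutants. Ccnd2, a D-type cyclin of progenitor cells, had 1215, 1180 and 1221 in wild-types 11 and 73 and mutant 38 and 843 in mutant 39. Ccne1 was lower in both mutants, with -0.35 ± 0.20, and Ccnd2 in mutant 39 alone, with -0.24 ± 0.17 (SE, n = 2 per group).

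Among 9 genes of the later phases 0 passed, and Cdc25b, a phosphatase that activates the kinases, had 149 and 143 in the wild-types against 162 and 216 in the mutants. Cdc25c, a mitotic phosphatase, had 7.22, 6.06 and 7.16 in wild-types 11 and 73 and mutant 38 and was listed at 0 in mutant 39. Among 13 genes of the Rb and E2F families 0 passed, with a median of 0.04. E2f3, an activating E2F, had 0.24 ± 0.15 and E2f6, a repressing one, had -0.18 ± 0.13 (SE, n = 2 per group).

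Proliferation markers gave 0 passes among 16 genes, with a median log2 fold change of -0.11. Of these, 5 had both mutants below both wild-types and 0 had both above, against 16.5% and 16.8% of all tested genes. Mcm6, a subunit of the replicative helicase, had 336 and 316 scaled read equivalents in the wild-types against 284 and 248 in the mutants. Mcm3, another subunit, had 82.0 and 73.2 in the wild-types against 59.0 and 61.8 in the mutants. Their log2 fold changes were -0.29 ± 0.15 and -0.35 ± 0.23 (SE, n = 2 per group; both adjusted p = 0.989, limma).

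Factors that degrade the inhibitor proteins gave 0 passes among 12 genes, with a median of 0.0028. Cks1b, the cofactor with which the ligase subunit Skp2 recognises p27, had 18.4 and 17.3 in the wild-types against 9.29 and 12.6 in the mutants. Skp1a, the adaptor of that ligase, had 4152 and 4425 in the wild-types against 4743 and 4883 in the mutants. The 3 genes of Cdk5, the neuronal kinase that cyclins do not activate, and its activators had overlapping groups, with Cdk5r1 at 0.03 ± 0.10 and Cdk5r2 at 0.04 ± 0.16 on the log2 scale (SE, n = 2 per group).

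**Figure D4:**
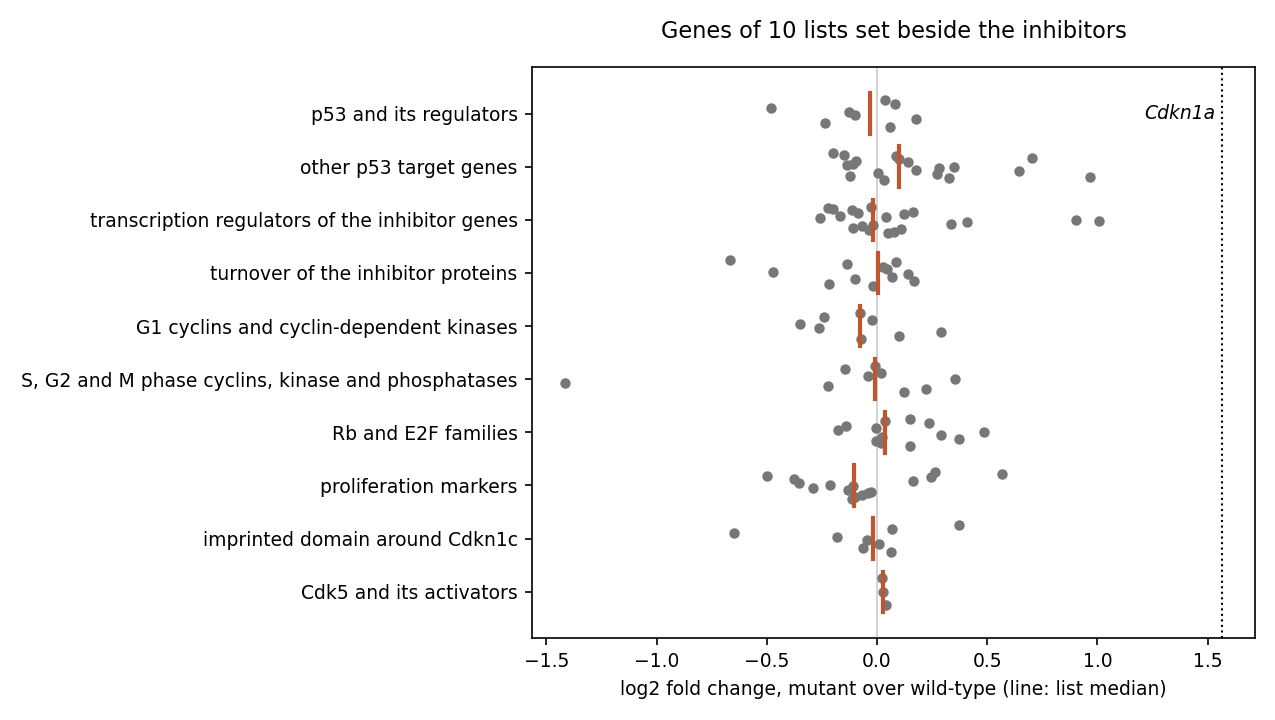
Log2 fold change of mutant over wild-type (horizontal axis) for each tested gene of 10 lists set beside the inhibitors (vertical axis); grey points are genes, orange lines are list medians and the dotted line marks Cdkn1a. The list medians lie between -0.11 and 0.10, and every point is left of Cdkn1a at 1.56.

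Markers of other cells differed between the libraries beside Cdkn1a. Of 10 oligodendrocyte markers, 9 had both mutants above both wild-types, against 16.8% of all tested genes, with summed levels of 65119 to 90137 in wild-type and 98168 to 110840 in mutant. The 8 thalamus markers summed to 1757 to 2070 in wild-type and 2534 to 5296 in mutant, and the 6 red blood cell genes to 4702 to 6399 and 6765 to 7976. Of the latter, Hba-a1 and Hba-a2 each had 2027 and 1681 in the wild-types against 2117 and 2473 in the mutants. The red blood cell sum holds both of these nearly equal values, whose reads may be the same. Of the thalamus markers, 4 had both mutants above both wild-types, against 16.8% of all tested genes, and 4 overlapped. Slc17a6 was at 380 and 408 in the wild-types against 954 and 783 in the mutants, and Prkcd at 499 and 405 against 1841 and 465. Mutant 38, the library with the highest Cdkn1a, also had the highest thalamus and choroid plexus sums. It was likewise highest in the oligodendrocyte, oligodendrocyte precursor, endothelial, mural cell and meningeal fibroblast sums. Within the meningeal fibroblast list, Dcn was lower in both mutants, at 801 and 1060 in the wild-types against 473 and 259 in the mutants. The other 7 markers of that list overlapped between the groups. Mutant 39 was highest in the red blood cell, microglia and astrocyte sums. Endothelial markers, 10 of 10 detected, summed to 3956 to 4035 in wild-type and 4022 to 4434 in mutant, and mural cell markers, 8 of 8, to 3098 to 3513 and 3108 to 3815. No oligodendrocyte, thalamus, red blood cell, endothelial or mural cell marker was at 0 in any library. Microglia markers, 8 of 8, summed to 6053 to 6345 in wild-type and 6351 to 6456 in mutant, and oligodendrocyte precursor markers, 6 of 6, to 5598 to 5758 and 5894 to 6460, so that both sums were narrowly apart. Astrocyte sums (8 of 8) overlapped between the groups. Hippocampal region markers summed to 11800 to 12619 in wild-type and 10036 to 11753 in mutant, and 3 of the 8 had both mutants below both wild-types, against 16.5% of tested genes. Fibcd1, a marker of area CA1, was at 2243 and 2299 in the wild-types against 1392 and 1600 in the mutants, with a log2 fold change of -0.60 ± 0.11 (SE, n = 2 per group; adjusted p = 0.420, limma). The other 5 of the list overlapped. Among them, Wfs1 was at 1631 and 1786 in the wild-types against 1069 and 2885 in the mutants, and Spink8 at 279 and 365 against 268 and 386. Immature neuron and progenitor markers summed to 2364 to 2621 in wild-type and 2331 to 2581 in mutant, with Nes, the intermediate filament nestin of progenitors and vessels, at 275 and 262 in the wild-types against 583 and 427 in the mutants. The part of these cells in the level of Cdkn1a was not tested. The log2 fold change of Cdkn1a was 1.88 within the pair high in choroid plexus markers (mutant 38 and wild-type 11) and 1.25 within the pair low in them (mutant 39 and wild-type 73).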

How the data were processed

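Hippocampal RNA of 2 mutant and 2 wild-type libraries was sequenced after ribosomal RNA removal with strand marking, per the labels' protocols. GSNAP, DESeq2 and build mm9 are named in the submitters' processing notes. How reads were counted, with which strand setting and annotation, is not given in the sources used here. The authors deposited 31315 transcript records with 1 signal value per library and 1 p-value per record, and the header does not say whether that p-value was adjusted. In each library 100% of low values were whole multiples of 1 step, within 0.05 of a step, and piled up at multiples of 42 steps. The deposited signal was therefore read as aligned bases divided by 1 factor per library, not normalised for length, and a read in several records is counted in each. It is not a count, so the planned count test was not used.

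Signal was divided by 42. Each gene with at least 1 read equivalent in 2 libraries entered a limma 3.58.1 fit (R 4.3.3) of log2(read equivalents + 1), with the group as the only term, a trended variance prior and Benjamini-Hochberg adjustment over 18127 genes. Fold changes are on that scale and understate those of genes with few reads. In the intervals and floors reads were rounded to whole numbers, and they cover counting error only, since reads carried no molecular identifiers. Whether each library is a separate animal is not in the labels, so the spread behind the p-values may be technical. The fit was tested on simulated data of this comparison, in 5 draws per fold size that each changed 200 genes. Estimates centred on the simulated folds, but false calls were a larger share of all calls than the threshold of 0.05 allows.

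The members, lists and rule for named genes were chosen with earlier results of these data known. The rule takes the 7 members, Atp6ap2, the 2 genes of each list with the smallest p, and the 5 (Cdkn1a) or 3 (members with a mean of at least 20) nearest profiles among genes with a mean of at least 50. Some genes under the rule are left out. Promoter sequences are RefSeq's, in GRCm38.p6. Transcript lengths are GENCODE M21's. Plots were made with matplotlib 3.10.9 in Python 3.11.15.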

Additional observations from a re-analysis of the deposited data

How the results depend on the processing

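Alternatives changed the pseudocount, the filter, the scaling, the unit, the variance prior, the choice of record, the choroid plexus content and the libraries used. The number of genes passing was 1 (1 higher, 0 lower). It was 12 (8 higher, 4 lower) with a robust variance prior, 0 without a variance trend (0 higher) and 86 (57 higher, 29 lower) with the choroid plexus covariate. Leaving out 1 library gave 1 to 37 genes, 1 to 23 higher and 0 to 14 lower, with 37 without wild-type 11. Cdkn1a stayed between 1.17 and 1.96 on the log2 scale over 17 alternatives, with an adjusted limma p from 0.000906 to 0.998. It passed in 1, the choroid plexus covariate (1.54). Leaving out 1 library, Cdkn1c ran from -0.84 to 0.78, Cdkn2b from -0.47 to 0.13, with the positive value without mutant 39, and Cdkn2c from -0.025 to 0.24, with the negative value without wild-type 11; 0 of these 3 passed in any alternative. Within the pairs high and low in choroid plexus markers, Cdkn1b had -0.015 and 0.12 and Cdkn2d had 0.095 and 0.39. The causes were not tested. No scaling moved the median of all genes by more than 0.1. No paired analysis was possible because the replicate numbers 11, 73, 38 and 39 are not shared between the groups. Depth limits Cdkn2a, at 0 or 1 read per library, and Cdkn2b, at 8 to 17 reads.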
